A study of Mus musculus with 54 samples.

Results

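The Toll-like receptor genes described here were 5 receptors, Tlr2, Tlr4, Tlr7, Tlr8 and Tlr13, together with Cd14, Ly96, Myd88 and Unc93b1, whose products work with them. These 9 symbols were chosen by name, and all 9 were found among the 43280 gene symbols of the tables. They were followed in 54 single cells of the mouse lung. The labels call all of them interstitial macrophages, which live in the tissue between the airspaces. Libraries were made cell by cell from full-length cDNA, in a protocol modified from SMART-seq2, and read as paired ends of 51 cycles. The labels give 1 group and name no animal, strain, age, treatment or sort gate, so the cells count as 1 sample. Cells are not replicates, so values are given with their spread over cells and without p-values.

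Toll-like receptors recognise molecules of microbes. Tlr2 and Tlr4 act at the cell surface, where Tlr2 pairs with Tlr1 or Tlr6 to bind bacterial lipopeptides, and Tlr4 with its partner Ly96 (MD-2) binds lipopolysaccharide handed over by Cd14. Tlr7, Tlr8 and Tlr13 act inside endosomes. Tlr7 senses single-stranded RNA and Tlr13 the RNA of bacterial ribosomes, and human TLR8 is an RNA sensor too. Unc93b1 carries the endosomal receptors from the endoplasmic reticulum to the endosome, and Myd88 is the adaptor that links all 5 receptors to NF-kB signalling.

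The cells were grouped by the mean log2(TPM + 1) of Prg4, Alox15 and Fn1, called the 3-gene level here. TPM is a level per transcript length, scaled to the same total in each cell. The 3 genes, which encode lubricin, a lipoxygenase and fibronectin, are known from macrophages of the serous cavities. In 23 cells the level was 7 or more, and in 31 it was under 7. Just inside the limit lay cell 31 at 7.31 and cell 20 at 7.76, and just outside it lay cell 29 at 5.34 and cell 1 at 4.86. The genes behind these levels were uneven. Cell 20 had 2433 TPM of Prg4 and 2252 TPM of Fn1 but 0.85 TPM of Alox15, and cell 29 had 4751 TPM of Fn1 with 1.42 TPM of Prg4. Cell 31 had 114, 345 and 98.4 TPM of Prg4, Alox15 and Fn1.

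The label was checked against macrophage markers. C1qa, C1qb, C1qc, Csf1r, Cd68, Emr1, Mertk, Fcgr1 and Lyz2 were all found, and 53 of the 54 cells held at least 3 of these 9 at 10 TPM or more. Cells 36 and 40 held 3 and 2 of them, cell 40 also 5 alveolar macrophage markers, and cell 36 also 3 monocyte and 3 T or NK cell markers. Cell 31 held 9 macrophage and 6 alveolar macrophage markers. Results that rest on these 3 cells are given with and without them. Cells at level 7 or more had a median of 1877 genes at 10 TPM or more, against 1413 in the cells under 7. The 10 further serous cavity markers were all present in some cell at level 7 or more, with a summed level of 0 to 3779 TPM (median 924). In the cells under 7 it was 0 to 1168 TPM (median 0.62), and Nt5e, Car6, Vmn2r26, Cav1, Apoc1 and Hdc reached 10 TPM in none of them. Of the 11 alveolar markers found, 9 were present in some cell at level 7 or more (summed level 11.4 to 5571 TPM, median 312) and 7 in some cell under 7 (1.71 to 43514 TPM, median 22.7). The highest sums were those of cells 31 and 40. Without cells 31, 36 and 40 the alveolar markers present were 6 and 4, at 11.4 to 1207 TPM (median 301) and 1.71 to 4223 TPM (median 21.2). The alveolar markers Siglecf and Pparg reached 10 TPM in no cell, whereas Fabp4 did so in 16 cells, all at level 7 or more. The summed level of 7 monocyte markers reached 904 TPM at level 7 or more and 8796 TPM under 7. The latter was that of cell 48, which had the lowest summed level of macrophage markers, 7531 TPM, and held Tlr2 and Tlr7. The monocyte markers went different ways. Hp was present in 9 cells, all at level 7 or more, and Ccr2 in 1 cell there and 12 under 7. Ly6c1 and Vcan reached 10 TPM in no cell. No B cell or fibroblast marker reached it in any cell. Of the neutrophil, dendritic cell, epithelial and endothelial markers, 3 of 7, 2 of 6, 2 of 5 and 1 of 4 did so in some cell. The widest was Csf3r, a neutrophil marker, in 8 cells. No cell held 3 or more markers of any of these 4 lists. The highest neutrophil sum was 2267 TPM in cell 11, and the highest dendritic cell sum was 1008 TPM in cell 23. The part of gene number and of these markers in the group differences below was not tested.

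Promoter windows of RefSeq (build GRCm38.p6), from 250 bases before to 50 bases after the start, are shown for 4 of the 9 genes. None was at hand for Tlr4, Tlr7, Ly96 and Unc93b1, and Cd14 was left out. They are those of Tlr2 and Tlr13, the receptors present in the most cells, of Tlr8, present in the fewest, and of Myd88. These genes were not picked by their levels. Capitals mark matches on either strand to GAGGAA, the core of sites bound by the macrophage factor PU.1, to GGGA and CC with any 4 bases between, an NF-kB-like pattern, and to GAAA and GAAA with any 2 bases between, an interferon-response-like pattern. No 2 different patterns overlapped in these windows. The motifs were chosen after the levels were known. The window of Tlr2 is chr3:83841559-83841858 on the minus strand, that of Tlr13 chrX:106143025-106143324 on the plus strand, that of Tlr8 chrX:167264280-167264579 on the minus strand and that of Myd88 chr9:119339969-119340268 on the minus strand.
Tlr2: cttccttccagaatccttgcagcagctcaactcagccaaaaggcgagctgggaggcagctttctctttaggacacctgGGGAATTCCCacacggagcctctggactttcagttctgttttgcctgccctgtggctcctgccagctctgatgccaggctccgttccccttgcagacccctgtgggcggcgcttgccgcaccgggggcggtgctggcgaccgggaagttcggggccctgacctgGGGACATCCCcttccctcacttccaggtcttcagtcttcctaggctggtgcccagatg
Tlr13: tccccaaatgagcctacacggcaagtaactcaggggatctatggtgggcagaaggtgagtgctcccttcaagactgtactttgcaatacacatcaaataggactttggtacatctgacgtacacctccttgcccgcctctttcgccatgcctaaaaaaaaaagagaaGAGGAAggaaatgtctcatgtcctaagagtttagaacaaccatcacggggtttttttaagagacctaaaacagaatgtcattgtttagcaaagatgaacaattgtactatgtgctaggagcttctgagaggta
Tlr8: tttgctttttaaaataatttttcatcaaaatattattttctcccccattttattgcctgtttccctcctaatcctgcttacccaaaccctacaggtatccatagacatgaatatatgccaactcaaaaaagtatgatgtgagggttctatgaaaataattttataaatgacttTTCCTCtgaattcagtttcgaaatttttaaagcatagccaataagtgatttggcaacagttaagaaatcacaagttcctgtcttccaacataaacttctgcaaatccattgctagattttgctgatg
Myd88: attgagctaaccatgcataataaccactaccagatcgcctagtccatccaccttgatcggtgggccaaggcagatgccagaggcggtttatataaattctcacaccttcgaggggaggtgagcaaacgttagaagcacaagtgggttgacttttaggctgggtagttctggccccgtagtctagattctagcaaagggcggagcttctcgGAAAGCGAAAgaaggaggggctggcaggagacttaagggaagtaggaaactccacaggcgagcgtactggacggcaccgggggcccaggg

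The Tlr2 window held the NF-kB-like pattern at 2 places, each readable on both strands, and no other of these 3 patterns. The windows of Tlr13 and Tlr8 each held the PU.1 core once, on the plus strand in Tlr13 and on the minus strand in Tlr8. The Myd88 window held the interferon-response-like pattern once. Of all 32851 windows of 300 bases in the table, 28.3% held GAGGAA, 20.7% the NF-kB-like pattern and 3.44% the interferon-response-like pattern. These matches describe the letters of the windows. Tlr7 and Tlr8 are neighbouring genes on chromosome X, which also carries Tlr13.

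Cd14 and Unc93b1 were widespread, and the receptors, Myd88 and Ly96 were sparse. Cd14 was at 10 TPM or more in 52 of 54 cells, or 96.3% (exact binomial 95% interval 87.3 to 99.5%), and Unc93b1 in 45, or 83.3% (70.7 to 92.1%). Among the receptors Tlr2 led with 19 cells, or 35.2% (22.7 to 49.4%), and Tlr13 followed with 13, or 24.1% (13.5 to 37.6%). Myd88 was present in 10 cells, or 18.5% (9.25 to 31.4%), and Ly96 in 9, or 16.7% (7.92 to 29.3%). Tlr7 reached 10 TPM in 7 cells, or 12.96% (5.37 to 24.9%), Tlr4 in 4, or 7.41% (2.06 to 17.9%), and Tlr8 in 2, or 3.70% (0.452 to 12.7%). In this order only Unc93b1 and Tlr2 are neighbours whose intervals do not overlap. The intervals cover counting error alone, and since TPM keeps no depth, a value of 0 leaves absence unproven. Over the 9 genes 41 values lay above 0 and under 10 TPM, from 0.17 to 8.22 TPM, of which Tlr2 held 15.

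**Figure D1:**
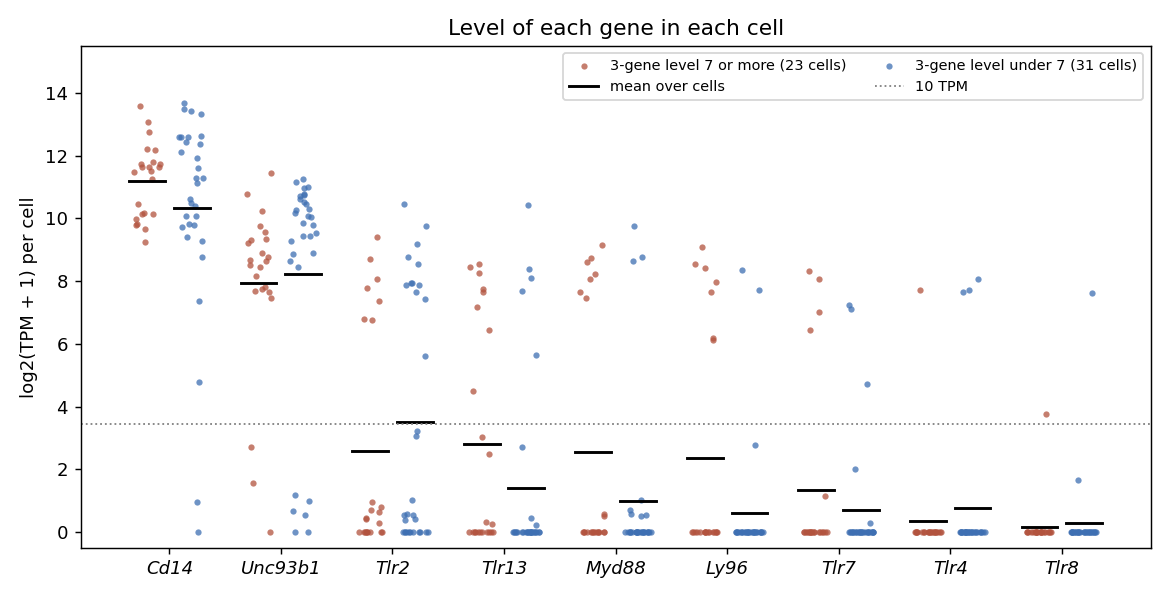
Each point is the level of a gene in 1 cell, as log2(TPM + 1), with the 23 cells at a 3-gene level of 7 or more to the left and the 31 cells under 7 to the right of each gene name; points are spread sideways. Black bars are means over cells and the dotted line is 10 TPM. Cd14 and Unc93b1 lie high in most cells, and the receptors are at or near 0 in most.

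Cd14, the co-receptor for lipopolysaccharide, ranged from 610 to 12173 TPM in the cells at level 7 or more, with a median of 2941 TPM. In the cells under 7 it ranged from 0 to 13158.5 TPM, with a median of 2234 TPM. The ranges overlapped almost throughout, and the 2 cells under 10 TPM were both in the lower group. One of those 2 was cell 36, at 0.95 TPM, and the other was cell 28. The mean log2(TPM + 1) was 11.21 ± 1.18 (SD over 23 cells) and 10.33 ± 3.26 (SD over 31 cells), a difference of 0.88. Without cells 31, 36 and 40 it was 0.41.

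Tlr2, the receptor for lipopeptides, ranged from 0 to 672 TPM at level 7 or more (median 0.35 TPM) and from 0 to 1405 TPM under 7 (median 0.50 TPM). It was present in 7 of 23 cells, or 30.4% (13.2 to 52.9%), and in 12 of 31, or 38.7% (21.9 to 57.8%). The intervals overlapped widely. Where it was present, the median was 217 TPM in the former and 244 TPM in the latter. The difference of mean log2 levels was -0.94. Without cells 31, 36 and 40 it was -1.39, past the threshold of 1 used below, and cell 31 held the 672 TPM.

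Tlr4, the receptor for lipopolysaccharide, was above 0 in 4 cells alone, which held 199, 209 and 267 TPM in cells 8, 46 and 11, under 7, and 208 TPM in cell 16, at 7 or more. All 4 held Cd14, at 164, 908, 2234 and 1417 TPM in the same order. Ly96, whose product Tlr4 needs to bind lipopolysaccharide, reached 10 TPM in none of the 4, and the highest value there was 5.84 TPM in cell 46. No cell of the 54 held Tlr4 and Ly96 together at 10 TPM, which allows a share of up to 5.56%. With the genes in 4 and 9 cells, a count of 0 is too small a number to be a result about the pair. Cd14 was present in 48 cells without Tlr4. Of the cells with Tlr4, cell 8 drew 11.9% of its TPM from mitochondrial genes, beside a median of 3.49% over the 54 cells. Cell 11 had the highest summed level of neutrophil markers.

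Tlr13, the endosomal sensor of bacterial ribosomal RNA, ranged from 0 to 376 TPM at level 7 or more (median 0.18 TPM) and from 0 to 1373 TPM under 7 (median 0 TPM). It was present in 8 of 23 cells, or 34.8% (16.4 to 57.3%), and in 5 of 31, or 16.1% (5.45 to 33.7%). The highest value, in cell 23, lay under 7. Among the cells that held Tlr13 the medians were 208 and 274 TPM.

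Tlr7, a sensor of single-stranded RNA, was at 86.6 to 317 TPM in 4 cells at level 7 or more and at 25.6 to 151 TPM in 3 cells under 7. Tlr8, its neighbour on the chromosome, held 12.4 TPM in cell 13, at level 7 or more, and 197 TPM in cell 1, under 7. No cell held both at 10 TPM, which with so few cells is not a result about the pair. All 7 cells with Tlr7 held Unc93b1, and so did 11 of the 13 with Tlr13, beside 45 of all 54 cells. Both cells with Tlr8 had Unc93b1 above 0 but under 10 TPM, at 5.48 TPM in cell 13 and 1.25 TPM in cell 1. So few cells are not a result about that pair.

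Ly96, the partner of Tlr4, was present in 7 of 23 cells at level 7 or more, or 30.4% (13.2 to 52.9%), at 68.5 to 539 TPM. Under 7 it was present in 2 of 31, or 6.45% (0.791 to 21.4%), at 208 TPM in cell 2 and 327 TPM in cell 17. Myd88, the shared adaptor, was present in 7 of 23 cells, at 176 to 563 TPM, and in 3 of 31, or 9.68% (2.04 to 25.8%), at 394 to 870 TPM. For both genes the intervals of the groups overlapped. The annotation GENCODE M21 (GRCm38) places Acaa1a, on the opposite strand, and Slc22a14 over Myd88, and SMART-seq2 libraries do not mark strand, so reads of Myd88 and Acaa1a could not be told apart where they overlap. Of the 10 cells with Myd88, 3 also held Acaa1a, and Slc22a14 reached 10 TPM in 0 of 54 cells, which allows up to 5.56%.

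**Figure D2:**
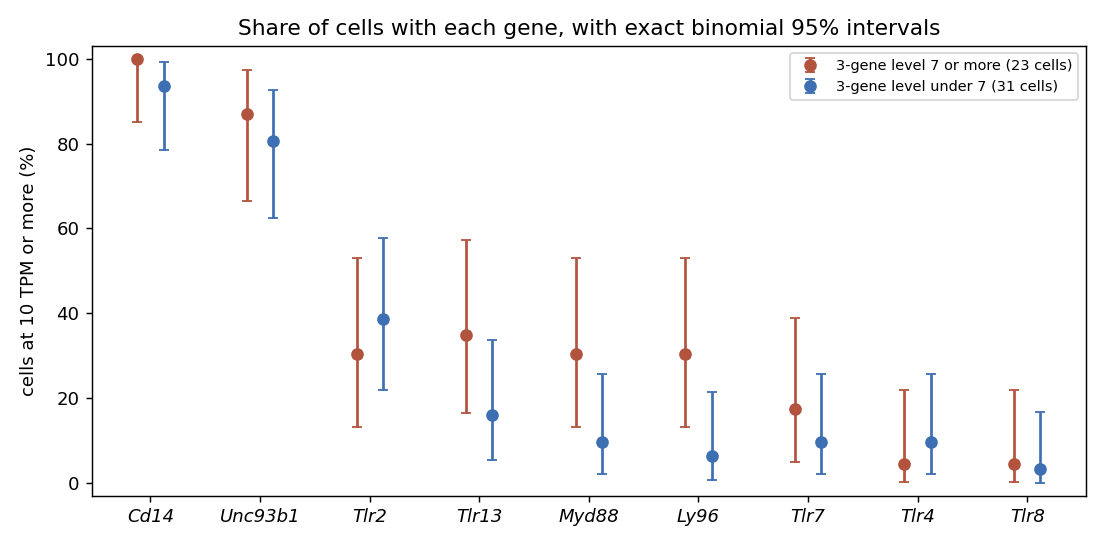
Points are the share of cells at 10 TPM or more for each gene, in percent, in the 23 cells at a 3-gene level of 7 or more and the 31 cells under 7, and bars are exact binomial 95% intervals for counting error. The intervals of the cell groups overlap for all 9 genes.

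Between the cell groups, 7 of the 9 genes could be compared, those at 10 TPM or more in at least 5 cells, which left out Tlr4 and Tlr8. A difference of mean log2(TPM + 1) of over 1 was used as the threshold of size. By that measure 3 of the 7 were higher at level 7 or more, Ly96 by 1.74, Myd88 by 1.58 and Tlr13 by 1.41. Over all 5593 genes compared, 30.2% were higher by over 1, and the median difference was 0.45. A count of 3 of 7 is near that share and is not a result about these genes. None of the 7 was lower by over 1, where the background was 7.97%, though Tlr2 was without cells 31, 36 and 40, when Unc93b1 stood at -0.97. Tlr2 (-0.94), Unc93b1 (-0.28), Tlr7 (0.66) and Cd14 (0.88) did not pass the threshold in either direction. Ly96 and Myd88 had under 5 cells in 1 of the groups, and Tlr7 had under 5 in both, with 4 and 3. With log2(TPM + 10) Ly96 alone was past the threshold, and in a difference of medians none of the 3 was, at 0 for Ly96 and Myd88 and 0.24 for Tlr13.

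Unc93b1, the chaperone of the endosomal receptors, was present in like shares of the groups but at unlike levels. It was in 20 of 23 cells at level 7 or more, or 87.0% (66.4 to 97.2%), and in 25 of 31, or 80.6% (62.5 to 92.5%). Where present it ranged from 175 to 2771 TPM (median 421 TPM) at level 7 or more and from 346 to 2427 TPM (median 1163 TPM) under 7, a ratio of medians of 2.77. Of the 20 cells 17 lay below the median of the 25, and 3 of the 20 and 15 of the 25 exceeded 1000 TPM. The ranges overlapped, and 23 of the 25 lay above the median of the 20. The value of 2771 TPM was that of cell 31, and without cells 31, 36 and 40 the ratio was 2.87. The comparison among cells that hold a gene was added after the values were seen.

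Levels among holding cells were lower at level 7 or more for many genes. Of the 2228 genes present in at least 5 cells of both groups, 26.5% were lower by over 1 in median log2(TPM + 1) among the cells that held them, and 4.26% were higher. The median over those genes was -0.52. The difference of Unc93b1 was -1.47, and 10.1% of the genes had one as low or lower. Scaling each cell by the median of its genes at 10 TPM or more reduced the Unc93b1 difference to -0.67, which is not past the threshold of 1. The share of all genes lower among holding cells was not computed under that scaling. Leaving Lyz2 out of the total gave -1.21 for Unc93b1. Lyz2, the lysozyme gene, had a median of 147630 TPM at level 7 or more and 26243 TPM under 7. The same difference was 0.25 for Cd14, -0.17 for Tlr2 and -0.39 for Tlr13, the only other members with 5 holding cells in each group.

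**Figure D3:**
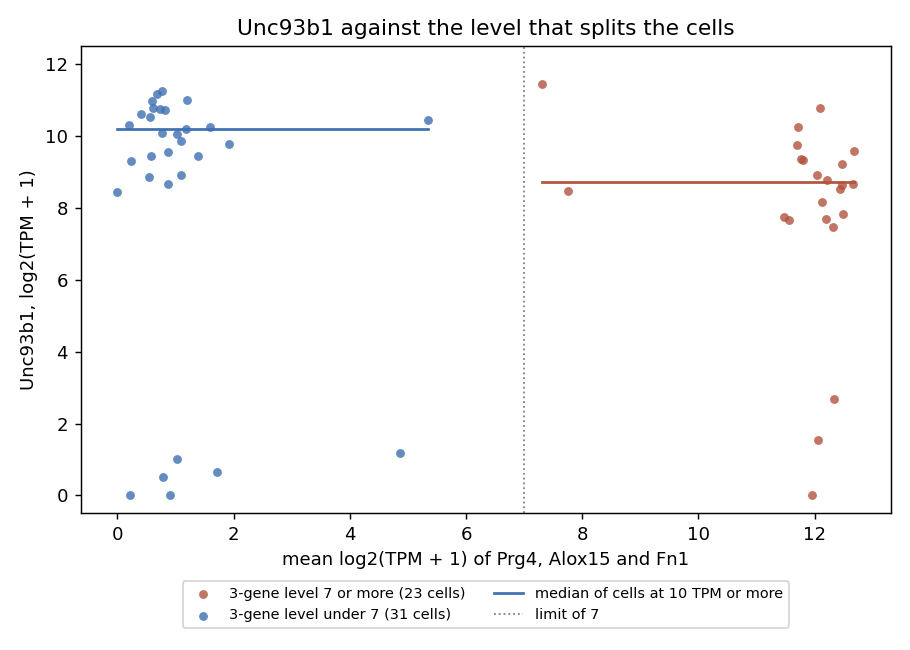
Each point is 1 of the 54 cells, with the mean log2(TPM + 1) of Prg4, Alox15 and Fn1 on the horizontal axis and the log2(TPM + 1) of Unc93b1 on the vertical axis. Horizontal lines are the medians of the cells at 10 TPM or more in each group, 1163 TPM under 7 and 421 TPM at 7 or more; the dotted line is the limit of 7.

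Per cell, few receptors were seen together. Of the 54 cells, 24 held none of the 5 receptors at 10 TPM, 16 held 1, 13 held 2 and 1 held 3. Surface receptors alone were present in 10 cells, endosomal receptors alone in 8 and both kinds in 12. The cell with 3 receptors, cell 10, held Tlr2 at 217 TPM, Tlr7 at 267 TPM and Tlr13 at 216 TPM. The 30 cells with a receptor had a median of 1748 genes at 10 TPM or more, and the 24 without had 1499.5. The 12 cells with both kinds had 1933.5. The part of gene number in the count of receptors was not tested.

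The mix of receptors leaned different ways in the groups, with overlapping intervals. At level 7 or more, 2 of 23 cells held surface receptors alone (8.70%, 1.07 to 28.04%), 5 held endosomal receptors alone (21.7%, 7.46 to 43.7%), 6 held both and 10 neither. Under 7, 8 of 31 held surface receptors alone (25.8%, 11.9 to 44.6%), 3 endosomal alone (9.68%, 2.04 to 25.8%), 6 both and 14 neither. The share of a cell's summed receptor TPM that came from the endosomal genes had a median of 41.04% over the 30 cells with a receptor. That median was 54.4% in the 13 such cells at level 7 or more, where 7 were mostly endosomal and 6 mostly surface. It was 12.9% in the 17 under 7, where 3 were mostly endosomal and 14 mostly surface. The SD over cells was 37.5 and 37.8 percentage points, close to the gap between the medians. Without cells 31, 36 and 40 the medians were 61.7% and 12.9%, and 1 of 22 and 8 of 29 cells held surface receptors alone.

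**Figure D4:**
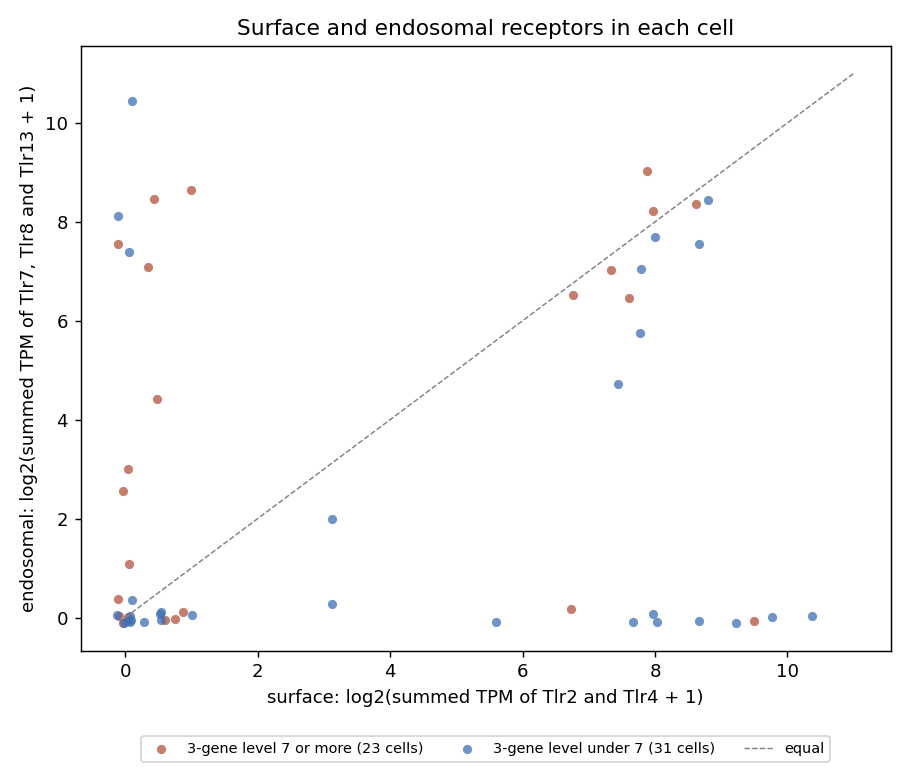
Each point is 1 of the 54 cells, with the log2 of the summed TPM of Tlr2 and Tlr4 plus 1 on the horizontal axis and that of Tlr7, Tlr8 and Tlr13 on the vertical axis; points are spread slightly to show cells at 0, and the dashed line marks equal levels. The 12 cells with both kinds lie at the upper right, the cells with surface receptors alone, 8 under a 3-gene level of 7 and 2 at 7 or more, lie along the horizontal axis, and those with endosomal receptors alone, 3 under 7 and 5 at 7 or more, along the vertical axis.

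Cells with a sparse member mostly held Cd14 and, for Tlr7 and Tlr13, Unc93b1, which most of all cells held. Fewer of them held a sparse partner, which few of all cells held. Over all 54 cells Cd14 was in 96.3%, Unc93b1 in 83.3% and Myd88 in 18.5%. The counts of Tlr2 with Cd14 or Myd88, of Tlr7 and Tlr13 with Unc93b1, and of any receptor with Myd88 were near these shares. They are not a result about the pairs. Of the 19 cells with Tlr2, 18 held Cd14, 4 held Myd88, 1 held Tlr6 and 1 held Tlr1. Of the 13 cells with Tlr13, 5 held Myd88, too small a number to be a result about the pair. Of the 30 cells with any of the 5 receptors 6 held Myd88, and so did 4 of the 24 without. Among the 31 cells under 7, Tlr2 was present in 10 of the 18 cells that held Ccr2 or Cx3cr1, chemokine receptor genes, and in 2 of the 13 that did not, and the medians of genes at 10 TPM or more were 1497 and 1408. By the same split Tlr4 and Tlr7 were each in 0 of 18, which allows up to 16.7%, and in 3 of 13 cells, and any of the 5 receptors in 10 of 18 and 7 of 13. In the same 31 cells Unc93b1 was in 15 of 15 cells with Folr2, Cbr2 or Cd163 and in 10 of 16 without, and Cd14 was in all 24 cells with H2-Ab1 and in 5 of 7 without. The medians of genes at 10 TPM or more were 1607 and 1266.5 for the former pair and 1497 and 1308 for the latter. These pairs were picked for mention after their values were seen.

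Other genes of the pathway were taken from 6 lists with 71 genes, of which 38 could be compared. Over the lists 13 of the 38 were higher at level 7 or more by over 1 and 3 were lower, beside backgrounds of 30.2% and 7.97%. Both counts are near those shares and are not a result about these genes. None of the 7 other receptors reached the 5 cells needed. Tlr6, a partner of Tlr2, was present in 4 cells, Tlr1, Tlr3, Tlr5 and Tlr9 in 1 each, and Tlr11 and Tlr12 in 0 of 54, which allows up to 5.56%. Of the 4 other adaptors Ticam2 (TRAM), which serves Tlr4, was present in 6 of 23 and 3 of 31 cells and was higher by 1.09, and Tirap, which bridges Myd88 to the surface receptors, was in 3 and 2 cells with a difference of 0.39. Ticam2 had 5 cells or more in the group at level 7 or more alone.

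Among the 15 folding, loading and co-receptor genes 13 were compared, and 6 were higher and none lower, beside 30.2% and 7.97% of all genes compared. Hsp90b1 (gp96), a chaperone of the endoplasmic reticulum that folds Toll-like receptors, was present in 20 of 23 cells at level 7 or more and 16 of 31 under 7, a difference of 2.91. Its co-chaperone Cnpy3 was in 8 and 1 cells (2.29), and Lman2, a cargo receptor of the early secretory pathway, in 18 and 11 (3.09). Lbp, which encodes the protein that brings lipopolysaccharide to Cd14, was in 7 cells at level 7 or more and in 0 of 31 under 7, which allows up to 9.68%. Cnpy3 and Lbp reached the 5 cells needed through the cells at level 7 or more alone, so their direction is not a result about them. Cd36, a scavenger receptor that helps Tlr2, was in 16 and 16 cells (1.74). The proteases Ctsb, Ctss and Lgmn, which act in endolysosomes, were in 53, 53 and 47 of the 54 cells, with differences of 0.41, 0.11 and -0.06.

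Of the 20 signalling genes 12 were compared, and 3 were higher and 1 lower, beside the same 30.2% and 7.97%. Ube2n, a ubiquitin-conjugating enzyme used by Traf6, was present in 16 of 23 and 9 of 31 cells (2.55), the kinase gene Ikbkb in 10 and 7 (1.57), and Irak1, a kinase recruited by Myd88, in 9 and 6 (1.29). Irf5, a transcription factor activated through Myd88, was in 7 and 15 cells, lower by over 1 (-1.77). Irf7, which acts downstream of Tlr7, was in 4 and 3 cells with a difference of 0.65.

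Among the 9 brakes 6 were compared, and 1 was higher and 1 lower, beside 30.2% and 7.97% of all genes compared. Nfkbia, the inhibitor of NF-kB, was in 22 of 23 and 26 of 31 cells and higher by 1.90. Tnfaip3 (A20), a deubiquitinase that limits NF-kB, was in 8 and 15 cells and lower (-1.20). Nfkbiz (0.89), Cyld (-0.41) and Zc3h12a (-0.58) did not pass the threshold. Of the 16 target genes 5 were compared, and 2 were higher and 1 lower, beside the same shares. With so few genes, the counts of brakes and targets are not a result about these lists. Cxcl2, a neutrophil chemokine, was in 18 and 16 cells with a difference of 3.01, and Il6 was in 7 cells at level 7 or more and in 0 of 31 under 7, which allows up to 9.68% (2.80). Ccl4, a chemokine, was in 1 and 8 cells (-2.02), and Ccl3 and Cd40 differed by -0.59 and -0.04. Il6 reached the 5 cells needed through the cells at level 7 or more alone, and Ccl4 through those under 7 alone. The direction of these differences is therefore not a result about Il6 and Ccl4. Tnf, Il12b, Cxcl10, Ifnb1 and Nos2 reached 10 TPM in no cell.

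**Figure D5:**
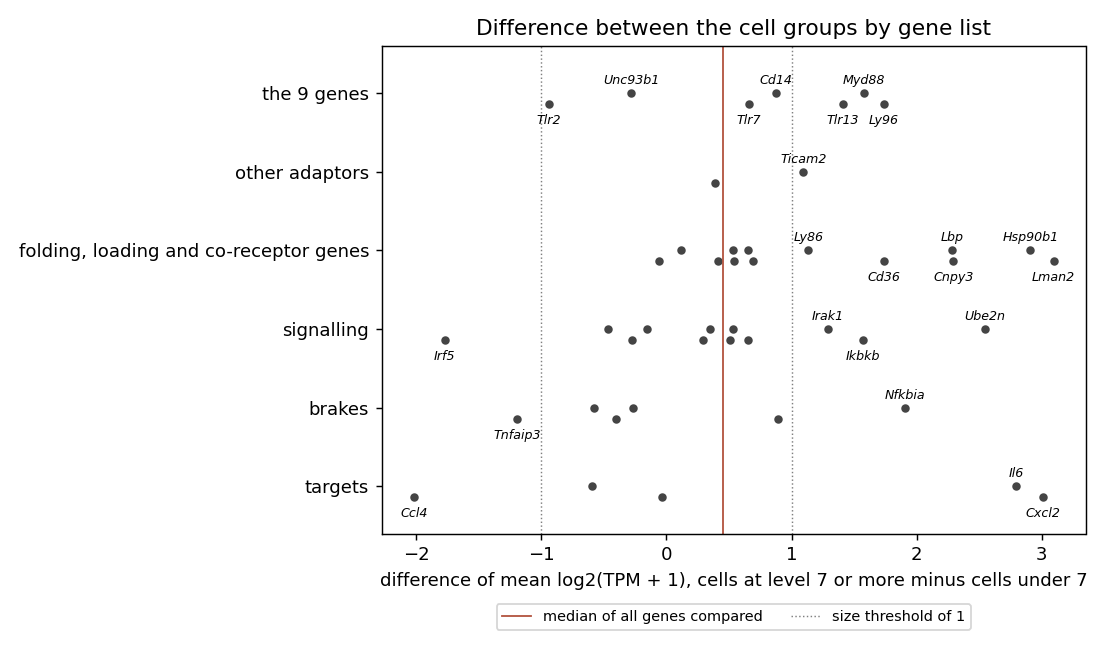
Each point is a gene present in at least 5 cells, placed by its difference of mean log2(TPM + 1) between the 23 cells at a 3-gene level of 7 or more and the 31 cells under 7, with 1 row for each list. The red line is the median of all 5593 genes compared, 0.45, and dotted lines mark the threshold of 1 in each direction; genes past it and the 7 members compared are named.

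For each of the 9 genes the 3 genes with the highest Spearman's rho over the 54 cells were taken from the 2832 genes at 10 TPM or more in at least 10 cells. These 27 values of rho ran from 0.41 to 0.54. They were picked as the highest among 2832 genes, and how high the top values run for unrelated genes was not tested. Each point is a cell with its own library, the ranks of the sparse genes are mostly ties at 0, and gene number per cell is shared by all genes. Cd14 ran closest to Dusp1 (0.52), a phosphatase gene switched on early after stimulation, then Btg2 (0.44), an early response gene too, and Dnajb11 (0.41). With Dusp1 rho was 0.50 in the cells under 7 and 0.57 in those at 7 or more. Unc93b1 ran closest to Aif1 (0.54), Fcrls (0.51) and Sepp1 (0.50). Aif1 was at 10 TPM or more in 20 cells, all under 7, and above 0 in no cell at 7 or more, and rho with Fcrls was 0.47 under 7 and 0.07 at 7 or more. Within the cells under 7 rho was 0.59 with Aif1 and 0.53 with Sepp1, and with Sepp1 it was 0.15 at 7 or more. The nearest genes were Fgfr1op2, Scarb1 and Gpr137b for Tlr2, Hint2, Cask and Ctso for Tlr13, Rtfdc1, Uqcrq and Calu for Tlr7, Khk, Pdlim2 and Polr2e for Ly96, and B3gnt2, Pgk1 and Gm15801 for Myd88. For Tlr4 they were Cpne3, Yipf3 and E2f1 and for Tlr8 Uap1l1, Mrpl27 and Tspyl1, which rest on 4 and 2 cells.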

How the data were processed

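The authors deposited TPM values, 1 table per cell with 43280 symbols, made with RSEM per the submitters' processing notes; its version, the aligner, the build and the annotation are not given in the sources used here. TPM summed to between 997509 and 1000000 in a cell, and between 1227 and 4946 genes were above 0 per cell. TPM keeps no depth, so the depth is unknown and cells could not be thinned to a common depth. All cells were kept. Doublets were not called, for want of counts. Levels are log2(TPM + 1), which understates the change of low genes, and a gene was counted as present at 10 TPM or more. Cells were split at a 3-gene level of 7. Genes present in at least 5 cells were compared between the groups as differences of means, called past 1. Intervals of shares are 95% Clopper-Pearson intervals. Where a share was 0, 3 counts gave its limit. The arithmetic of the difference step was checked on shuffled data with known folds put into widely present genes. That check does not cover sparse genes such as the receptors.

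All 9 members are named. From each list the named genes were the 5 with the largest difference and the 3 in most cells, among those in at least 5 cells, and for each member the 3 genes with the highest rho. List genes in fewer cells, such as the other receptors, are outside that rule; they are named for their counts of cells, a choice made with the values known. The members and lists were chosen with earlier results of these data known. Promoter windows came from RefSeq, and Adgre1 was read under its older symbol Emr1. Python 3.11.15, pandas 2.3.3, NumPy 2.4.6 and SciPy 1.17.1 were used.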

Additional observations from a re-analysis of the deposited data

How the results depend on the processing

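The number of the 9 genes higher at a 3-gene level of 7 or more by over 1 stayed within 1.5 times of 3 under 18 of 20 alternatives. It was 1 with log2(TPM + 10), Ly96, and 0 in a difference of medians, which is 0 by construction for Ly96 and Myd88, listed at 0 in most cells of both groups, and was 0.24 for Tlr13. The number lower by over 1, 0 as reported, was 1 with log2(TPM + 0.1), with a limit of 8, without cells 31, 36 and 40 and without cells 1, 20, 29 and 31 (Tlr2 in each), and in a difference of medians (Unc93b1). It was 2, Tlr2 and Unc93b1, with the 3-gene level taken without Alox15 and in cells with 2000 to 4000 genes above 0. The cause was not tested. The median endosomal share over all cells with a receptor lay between 29.4% and 43.2% under the 20 alternatives. Most of them could not change it, because scaling cancels within a cell and the pseudocount, gene filter and cell grouping do not enter it. The medians of that share in each group were recomputed only without cells 31, 36 and 40. The Unc93b1 difference among holding cells lay between -1.55 and -0.67. The mean difference of Unc93b1 was 0.12 when cells were scaled by the median of their genes, a scaling that moved the median of all genes compared from 0.45 to 0.61. Counting any value above 0 as present gave Tlr2 in 63.0%, Myd88 in 31.5% and Unc93b1 in 94.4% of the cells, outside the intervals at 10 TPM. The removal of cells 1, 20, 29 and 31 was chosen after seeing the data. No paired analysis was possible because all cells belong to 1 labelled group. TPM gives no depth, which limits what a value of 0 can show.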
